A study of Homo sapiens with 16 samples.

Results

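The 4 libraries of mir124-3p, a microRNA (miRNA) best known from neurons, were examined among the 16 RISC-trap libraries of the series. They were taken by title from the deposited count table: 1 library titled Solid and 3 titled Illumina, after the SOLiD and Illumina sequencing platforms. Each platform was set apart against the same 12 libraries of 6 other miRNAs, and the genes called in the same direction in both comparisons were taken as the result. All libraries came from HEK 293 cells, an established line from human embryonic kidney. PolyA RNA was measured after RISC-trap immunoprecipitation and Trizol extraction. The reference held 2 libraries of each of 6 miRNAs: mir550-3p, mir3613-5p, mir1301-3p, mir1271-5p, mir1260a-5p and mir1180-3p. The labels say neither whether the libraries of a miRNA came from separate cultures nor which sequencer read the 12 reference libraries, and they name a SOLiD kit for all 16. The p-values therefore measure the spread between these libraries, which may be technical, and platform is part of the Illumina comparison, where it cannot be told apart from the miRNA. No input RNA and no trap without an added miRNA is named, so a higher value can be more recovery with the miRNA or more of that mRNA in the cells, and these cannot be told apart.

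A miRNA guides the RNA-induced silencing complex (RISC) to mRNAs that pair with its seed, the bases near its 5′ end. The complex holds an Argonaute protein and GW182, the product of TNRC6A, which brings the enzymes that shorten the poly(A) tail and remove the cap. RISC-trap uses a GW182 that acts as a dominant negative: it holds the bound mRNA without its decay, and the mRNA is precipitated with the complex and counted. The miRNA mir124 is abundant in neurons and is known for repressing mRNAs of non-neuronal cells, among them PTBP1, a repressor of neuronal splicing, and the small phosphatases that work with the repressor REST. Other reported targets act in adhesion, membrane traffic and the cell cycle.

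Since each mir124 value is relative to the reference miRNAs, the sequences that go with their names are given. Which miRNAs the complexes held was not measured. The names matched RefSeq (GRCh38.p14) for 6 of the 7 miRNAs, with mir550-3p read as miR-550a-3p after its column name and mir1260a-5p read as miR-1260a. The sequences are 5′ to 3′, and capitals mark the seed, bases 2 to 8.
hsa-miR-1180-3p: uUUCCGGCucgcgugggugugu
hsa-miR-1260a: aUCCCACCucugccacca
hsa-miR-1271-5p: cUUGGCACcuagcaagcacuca
hsa-miR-1301-3p: uUGCAGCUgccugggagugacuuc
hsa-miR-3613-5p: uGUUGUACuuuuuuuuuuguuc
hsa-miR-550a-3p: uGUCUUACucccucaggcacau
The 6 seeds all differed, so no reference miRNA shared its seed with another.

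The Solid library held 12460405 counts and Illumina replicates 1, 2 and 3 held 19484899, 20473484 and 26527365, against 7612758 to 17972321 in the 12 reference libraries. Of 19077 genes, 18553 had a count in the Solid library and 18308 to 18781 in the reference, but 15390 to 15772 in the Illumina libraries, although these were the deepest. A count of 0 allowed up to 0.113 to 0.394 CPM, the usual measure of counts scaled to library depth, from 3 counts of the library total, which covers counting error only. Illumina replicate 2 stood apart from replicates 1 and 3. Its chi-square per degree of freedom was 89.6 against replicate 1 and 102 against replicate 3, while replicates 1 and 3 differed by 7.29, less than any of the 6 reference pairs (36.7 to 84.8). Counts over both platforms and on Illumina are therefore also given without replicate 2 and with replicates 1 and 3 summed. Genes chosen by rule are named where either step ended a call. The 10 HEK 293 markers, all with counts, summed to 1423 CPM in the Solid library, 1383 to 1778 in the Illumina libraries and 985 to 2027 in the reference. Summed markers of neurons and glia (14 genes) were 92.8 CPM on Solid, 49.9 to 53.8 on Illumina and 96.3 to 137 in the reference, and those of fibroblasts and mesenchyme (12 genes) 34.8, 17.0 to 20.0, and 32.3 to 204. Those of blood (14 genes) were 22.2, 8.62 to 11.2, and 22.7 to 50.3, and those of liver and keratinocytes (9 genes) 96.4, 55.1 to 59.6, and 137 to 198. Among the markers at 0 in all 3 Illumina libraries were COL1A2 and COL6A3, CD3E, CD4 and HBB, and TTR, SERPINA1, KRT5 and KRT1. These 4 marker lists had 0 genes called on both platforms by edgeR and by DESeq2 (0 higher and 4 lower at an unadjusted p under 0.05 on both), and their part in the results was not tested.

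The first question was which mRNAs were recovered more, and which less, with mir124-3p than with the other miRNAs. A group of 1274 genes was higher on both platforms and 263 genes were lower on both, of 17858 tested in both (7.13% and 1.47%). Calls came from edgeR's quasi-likelihood test with Benjamini-Hochberg adjustment, at an adjusted p below 0.05, and a log2 fold change is mir124 over the mean of the 6 other miRNAs. In the Solid comparison 1326 of 18135 genes were higher (7.31%) and 287 lower (1.58%), and in the Illumina comparison 4370 of 17889 were higher (24.4%) and 7937 lower (44.4%). The genes higher on both were 96.1% of the Solid risers and 29.2% of the Illumina risers, and those lower on both were 91.6% and 3.31% of the fallers. The comparisons share the 12 reference libraries, so these shares are no independent replication. Over all genes the log2 fold changes had a median of -0.12 on Solid and -0.46 on Illumina. With upper-quartile scaling, which moved these medians by -0.18 and -0.17, 960 genes were higher on both and 609 lower. The Solid counts were then 997 higher and 664 lower, so the balance between rises and falls depended on the scaling. The Illumina median also moved with single reference libraries. It was -0.23 without replicate 1 of mir1271-5p but -0.48 without replicate 1 of mir1301-3p, and -0.31 with no filter on low counts. A small Illumina log2 fold change therefore depends on these choices. Without Illumina replicate 2, 1275 genes were higher on both, of which 1273 were among the 1274, and none of the 74 genes chosen by rule lost its call against the other miRNAs.

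**Figure D1:**
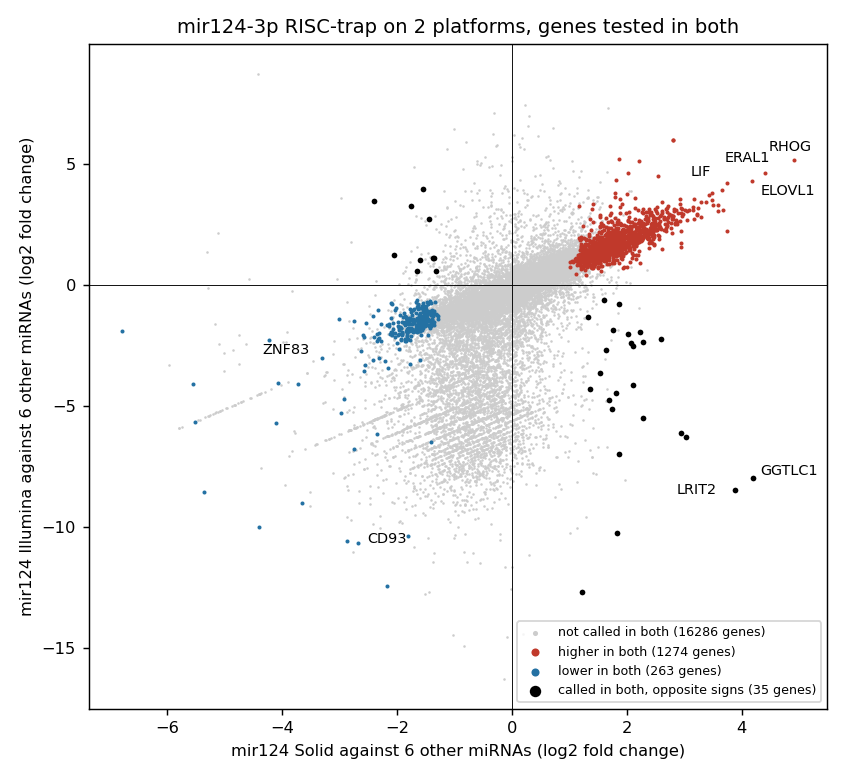
Each point is 1 of 17858 genes, with its log2 fold change against the 6 other miRNAs in the mir124 Solid library (x axis) and in the 3 mir124 Illumina libraries (y axis). The 1274 genes higher on both platforms reach up to RHOG at 4.91 and 5.18, the 263 lower on both lie at the lower left, and 35 genes were called with opposite signs; very low Illumina values, including the diagonal streaks, are genes at or near 0 counts, where the fitted size depends on the prior count.

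The values of the 1274 risers describe genes chosen for being higher in these libraries, and are no test. The risers had a median log2 fold change of 1.71 on Solid and 1.67 on Illumina, and the smaller of both was over 1 in 1197 genes, over 2 in 270 and over 3 in 21. In 1044 of them (81.9%) all 4 mir124 libraries lay above all 12 reference libraries, an order that 10.9% of all tested genes had; the choice of the risers favours it. Together they held 22.1% of the counts in the Solid library, 18.3%, 11.6% and 18.4% in Illumina replicates 1, 2 and 3, and 4.78% to 6.79% in the reference. TNRC6A alone, the gene of GW182, held 5.11% on Solid, 4.003%, 1.07% and 3.97% on Illumina and 0.665% to 1.49% in the reference. The risers' median deviation from the reference mean was 1.86 on the log2 scale in the Solid library and 1.78, 1.36 and 1.86 in the Illumina replicates. Replicate 2 was the lowest of the 4 by both measures. In the direct test between platforms 17 of them were higher on Illumina than on Solid and 5 lower. The choice of genes called in 1 direction on both platforms keeps these counts low, so nothing is read from them against the 2.37% and 19.5% of all 18271 genes tested in that comparison.

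The 12 genes described first had the largest rise, taken as the smaller of both log2 fold changes, among risers with a mean of at least 5 CPM and all 4 mir124 libraries above the reference. That separation was thus part of the choice. RHOG led them, with the largest rise of all on Solid, while on Illumina SNX15 at 5.21 and the near-identical copies EIF3C and EIF3CL, both at 6.02 and uncertain for that reason, exceeded it among the risers. RHOG encodes a small GTPase that drives membrane ruffling and is a reported mir124 target. Its level was 615 CPM in the Solid library and 749, 585 and 698 CPM in Illumina replicates 1, 2 and 3, against 9.94 to 47.0 (median 17.9) in the reference. The lowest mir124 value, in replicate 2, was still far above the highest of these. The log2 fold change was 4.91 ± 0.35 (adjusted p = 4.5e-07) on Solid and 5.18 ± 0.25 (adjusted p = 1.7e-12) on Illumina. Where a pair of log2 fold changes or adjusted p-values is given from here on, the first is of Solid and the second of Illumina. ERAL1, a mitochondrial GTPase that helps assemble the small ribosomal subunit there, stood at 494 CPM on Solid and 639, 448 and 491 on Illumina, against 11.7 to 44.0 (median 20.1). It rose by 4.40 and 4.63 on the log2 scale (adjusted p = 4.5e-07 and 1.1e-12). For both genes the highest reference library was replicate 1 of mir1180-3p and the lowest was replicate 1 of mir1301-3p.

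Lipid enzymes and membrane proteins followed. ELOVL1, which lengthens saturated very long-chain fatty acids, stood at 421 CPM in the Solid library and 486, 297 and 495 CPM in Illumina replicates 1, 2 and 3, against 15.5 to 28.5 (median 21.9) in the reference. It rose by 4.18 ± 0.26 (adjusted p = 8.8e-08) on Solid and 4.32 ± 0.18 (adjusted p = 2.1e-13) on Illumina. The reference libraries of ELOVL1 lay close together, and replicate 2 was the lowest mir124 library. PIP4K2C, a lipid kinase of phosphatidylinositol phosphates, stood at 123.55 CPM on Solid and 141, 72.6 and 134 on Illumina, against 6.17 to 14.2, and rose by 3.48 and 3.51. ABHD4, a lipid hydrolase of N-acylethanolamine synthesis, stood at 81.2 CPM on Solid and 92.5, 52.4 and 84.8 on Illumina, against 4.01 to 10.5, and rose by 3.37 and 3.42. In both genes all 4 mir124 libraries lay above the reference and replicate 2 was again the lowest of the 4.

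SCAMP2, a secretory carrier membrane protein of the recycling pathway, stood at 232 CPM in the Solid library and 311, 191 and 271 CPM in Illumina replicates 1, 2 and 3, against 7.66 to 28.5 (median 16.5). Its rise was 3.66 ± 0.30 (adjusted p = 2.1e-06) on Solid and 3.94 ± 0.19 (adjusted p = 2.2e-12) on Illumina. GGA2, a clathrin adaptor that sorts cargo at the trans-Golgi network, stood at 1284 CPM on Solid and 1122, 671 and 1167 on Illumina, against 56.9 to 139, and rose by 3.58 and 3.33. The order of GGA2 was that of most of the leading genes, with replicate 2 well below replicates 1 and 3 but above all 12 reference libraries. LIF, the cytokine leukaemia inhibitory factor stood at 48.0 CPM on Solid and 61.2, 66.5 and 57.2 on Illumina, against 1.73 to 7.51. It rose by 3.74 and 4.23 (adjusted p = 1.5e-05 and 1.3e-11), and here replicate 2 was the highest mir124 library.

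PLOD3 hydroxylates and glycosylates collagen lysines, and is a reported target. It stood at 129 CPM on Solid and 167, 88.3 and 182 on Illumina, against 6.10 to 15.8, and rose by 3.43 and 3.74. LAS1L, which cuts the precursor of ribosomal RNA, stood at 97.8 CPM on Solid and 90.7, 48.8 and 96.3 on Illumina, against 4.75 to 15.1, and rose by 3.50 and 3.31. UAP1L1, a relative of the enzyme that makes UDP-N-acetylglucosamine, rose by 3.48 and 3.82 and ASCC2, which binds ubiquitin chains in the response to alkylated DNA, by 3.30 and 3.43. ASCC2 had the narrowest gap of the leading genes: its lowest mir124 value was 53.2 CPM in replicate 2 and its highest reference value 37.7. All 12 leading genes kept their calls on both platforms under every alternative run.

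**Figure D2:**
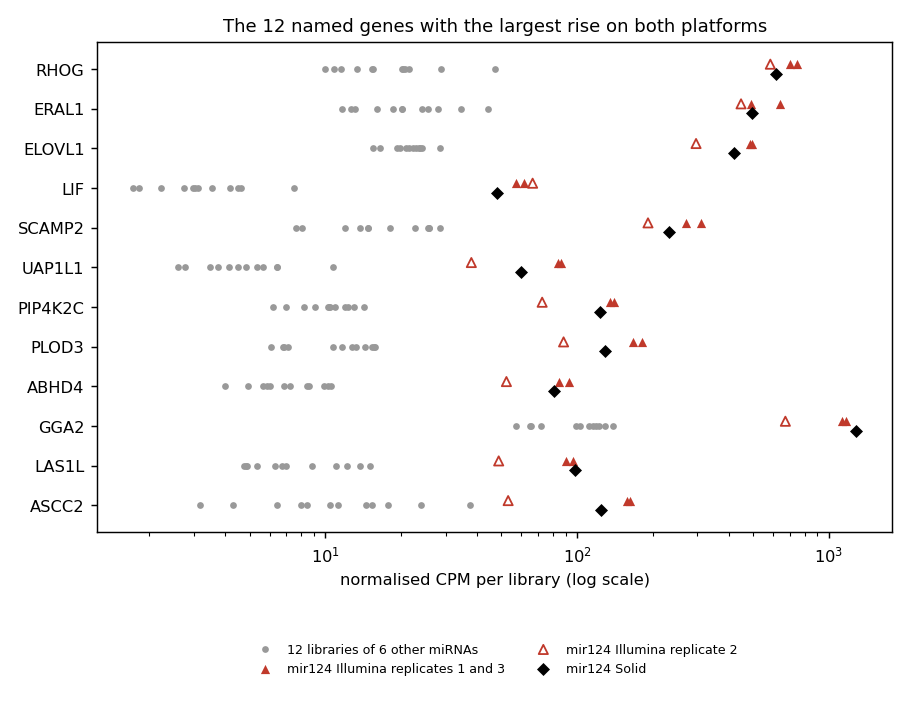
Normalised CPM in each library (log x axis) for the 12 genes with the largest rise on both platforms. Grey points are the 12 reference libraries, red triangles the mir124 Illumina libraries (open for replicate 2) and black diamonds the Solid library; in each gene all 4 mir124 libraries lie above all 12 others, and replicate 2 is the lowest of the 4 in every gene but LIF.

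Targets of mir124 reported in other studies were next asked for by group. The 3 lists were written from memory with earlier results of these data known. Of 101 reported targets tested in both comparisons, 29 were higher on both (28.7%, against 7.13% of all genes) and 1 was lower (0.990%, against 1.47%). Their median log2 fold change was 0.75 on Solid and 0.70 on Illumina, where all genes had -0.12 and -0.46. On Illumina alone 58 of the 101 were higher and 19 lower, where 24.4% and 44.4% of all genes were. Calls also went with abundance. The mean CPM over the 16 libraries had a median of 35.4 in the risers, 125 in the fallers and 14.7 in all genes tested in both. The share of all genes, here and for the families below, was not matched for abundance, so an excess over it was not set apart from abundance. With upper-quartile scaling the 3 lists had 10, 10 and 5 genes higher on both, and 0, 2 and 2 lower.

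Transcription and cell fate targets had 11 of 30 genes higher on both platforms (36.7%) and 0 lower (3 lower at an unadjusted p under 0.05 on both, and 3 by DESeq2). PTBP1, the splicing repressor that is replaced by PTBP2 in neurons, stood at 779 CPM in the Solid library and 766, 529 and 669 CPM in Illumina replicates 1, 2 and 3, against 75.8 to 229 (median 140.3) in the reference. Its log2 fold change was 2.38 ± 0.30 (adjusted p = 1.0e-04) on Solid and 2.26 ± 0.18 (adjusted p = 4.4e-09) on Illumina, with all 4 libraries above the reference. CEBPA, a transcription factor of myeloid and fat cells, stood at 137 CPM on Solid and 184, 116 and 164 on Illumina, against 8.20 to 29.5, and rose by 2.71 and 3.01. LMNB1, a protein of the nuclear lamina, stood at 154 CPM on Solid and 106, 45.5 and 117 on Illumina, against 11.8 to 40.7, and rose by 2.57 and 1.91. In LMNB1 replicate 2 was just above the highest reference value. The transcription factors NFATC1 (2.77 and 2.36), RELA (2.23 and 2.52), STAT3 (2.19 and 2.10) and RFX1 (1.75 and 0.90) and the histone methyltransferase EZH2 (1.40 and 1.09) rose too, EZH2 with overlapping libraries. SOX9, a glial factor often named as a mir124 target, had 0.11 and -0.15 (adjusted p = 0.921 and 0.671). The Notch ligand JAG1 had 0.24 and -0.01 (adjusted p = 0.827 and 0.988).

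Membrane, adhesion and transport targets had 11 of 37 genes higher on both (29.7%, against 7.13% of all genes) and 1 lower (2.70%, against 1.47%). At an unadjusted p under 0.05 on both 3 were lower, and by DESeq2 2. VAMP3, a SNARE protein of recycling endosomes, stood at 457 CPM in the Solid library and 318, 470.4 and 275 CPM in Illumina replicates 1, 2 and 3, against 58.6 to 125 (median 91.5). VAMP3 rose by 2.19 ± 0.28 (adjusted p = 1.1e-04) on Solid and 1.95 ± 0.18 (adjusted p = 2.6e-08) on Illumina on the log2 scale. In VAMP3 the highest values were those of replicate 2 and the Solid library. TMEM109, an ion channel protein of the endoplasmic reticulum and nuclear membrane, stood at 661 CPM on Solid and 693, 459.8 and 725 on Illumina, against 89.6 to 184, and rose by 2.15 and 2.19. F11R, the junctional adhesion molecule A, rose by 1.90 and 1.83 and SURF4, a cargo receptor between endoplasmic reticulum and Golgi, by 1.66 and 1.75. The other risers beside RHOG, SCAMP2 and PLOD3 were ARHGEF1, ACTN4, CD151 and SERP1 (from 1.12 to 2.30 on Solid). ROCK1, a kinase that makes actomyosin contract, was the 1 called lower on both by edgeR. It stood at 38.4 CPM on Solid and 49.0, 76.6 and 41.5 on Illumina, against 76.8 to 186, with log2 fold changes of -1.64 ± 0.49 (adjusted p = 0.0446) on Solid and -0.97 ± 0.26 (adjusted p = 0.00256) on Illumina. Its Solid call ended without either library of mir1180-3p, mir3613-5p or mir550-3p (adjusted p from 0.0554 to 0.0776).

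Some much-cited targets did not pass on both platforms. LAMC1, a laminin chain of basement membranes, stood at 67.3 CPM on Solid and 55.4, 49.9 and 56.7 on Illumina, against 23.2 to 38.3, so that all 4 libraries lay above the reference. Its log2 fold change was 1.04 ± 0.37 (adjusted p = 0.0889) on Solid and 0.85 ± 0.21 (adjusted p = 0.00117) on Illumina. The Solid call was reached with DESeq2 (1.11, adjusted p = 0.0327) and with 1 fit of all 16 libraries (1.16, adjusted p = 0.0152). ITGB1, the integrin beta-1 chain, stood at 36.0 CPM on Solid and 106, 119 and 102 on Illumina, against 11.7 to 37.8. It had 0.57 on Solid (adjusted p = 0.517), inside the reference, and 2.28 on Illumina (adjusted p = 4.0e-07), above it; the difference between the platforms was 1.61 ± 0.58 and narrowly missed the threshold (adjusted p = 0.0527). CDK6, a G1 kinase, stood at 84.9 CPM on Solid and 55.6, 111 and 65.9 on Illumina, against 80.7 to 224, with -0.61 ± 0.40 (adjusted p = 0.381) on Solid and -0.61 ± 0.24 (adjusted p = 0.0307) on Illumina. Its Illumina call ended under 16 alternatives. Among them were DESeq2 (-0.53), no filter on low counts (-0.34) and fits without single reference libraries, such as replicate 2 of mir3613-5p (-0.27). The fits without replicate 1 (-0.41) or replicate 3 (-0.50) of Illumina, or with replicates 1 and 3 summed (-0.42), were others. SLC16A1, a lactate carrier, stood at 66.5 CPM on Solid and 59.5, 60.3 and 56.6 on Illumina, against 28.6 to 99.4, and had 0.01 ± 0.54 (adjusted p = 0.993) and -0.04 ± 0.30 (adjusted p = 0.921). The standard errors leave room for a shift of SLC16A1 in either direction.

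Cell cycle, signalling and metabolism targets had 7 of 34 genes higher on both (20.6%) and 0 lower (3 at an unadjusted p under 0.05, 2 by DESeq2). MAPK14, the stress kinase p38 alpha, stood at 279 CPM on Solid and 218, 180.0 and 218 on Illumina, against 32.3 to 92.3, and rose by 2.19 and 1.88. NEK6, a mitotic kinase, stood at 135 CPM on Solid and 111, 89.5 and 101 on Illumina, against 16.5 to 42.5, and rose by 2.28 and 1.98. Both lay above all reference libraries, with the Solid library the highest. PRPS1, which makes the precursor of purine and pyrimidine nucleotides, rose by 1.19 and 1.13. RRAS (2.33 and 2.85), SPHK1 (1.83 and 1.36) and ELOVL1 were also among the 7. CDK4 lay above the reference in all 4 libraries (272 CPM on Solid and 304, 299 and 328 on Illumina, against 68.4 to 171), but its Solid value of 0.98 ± 0.33 had an adjusted p of 0.0699.

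Families of these targets differed among their members. The family lists overlap the target lists, so their shares are not independent of those above. CTDSP1, CTDSP2, CTDSPL, PTBP1, VAMP3, RHOG, PLOD3 and ROCK1 were called in both kinds of list. Several of the families are small, and no share was tested against that of all genes. Of 7 small CTD phosphatase genes, whose best-known products act with REST at neuronal genes, 3 were higher on both platforms (42.9%, against 7.13% of all genes) and 0 lower (1 at an unadjusted p under 0.05 and by DESeq2). CTDSP1 stood at 416 CPM in the Solid library and 485, 432 and 468 CPM in Illumina replicates 1, 2 and 3, against 36.8 to 141 (median 57.2), and its log2 fold change was 2.50 ± 0.34 (adjusted p = 2.1e-04) on Solid and 2.78 ± 0.21 (adjusted p = 1.2e-09) on Illumina. CTDSP2 stood at 139.9 CPM on Solid and 179, 151 and 177 on Illumina, against 21.0 to 50.9, and rose by 2.13 and 2.53. CTDSPL stood at 325 CPM on Solid and 246, 411 and 252 on Illumina, against 75.8 to 203, and rose by 1.26 and 1.29. All 3 lay above the reference in all 4 libraries, but CTDSPL lost its Solid call with upper-quartile scaling (1.07, adjusted p = 0.0656) and without replicate 2 of mir550-3p (1.23, adjusted p = 0.0514). CTDSPL2, at 48.1 CPM on Solid and 34.9, 50.4 and 33.8 on Illumina, lay below the reference (78.9 to 217) with -1.30 and -1.45 (adjusted p = 0.107 and 9.5e-05). With upper-quartile scaling 2 genes of the family were higher on both and 1 lower.

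The PTBP and neuronal splicing list had 1 riser, PTBP1, and 1 faller among 17 genes (5.88% each, against 7.13% and 1.47% of all genes). PTBP2, the neuronal counterpart of PTBP1, stood at 107 CPM on Solid and 103, 86.0 and 95.9 on Illumina, inside the reference range of 39.2 to 200.1, with log2 fold changes of 0.09 ± 0.66 and 0.04 ± 0.39 (adjusted p = 0.954 and 0.935). PTBP3 had -0.46 and -0.65 (adjusted p = 0.543 and 0.0194). The faller was MBNL1, a regulator of splicing in muscle and brain. It stood at 162 CPM in the Solid library and 129, 189 and 108 CPM in Illumina replicates 1, 2 and 3, against 254 to 1092 (median 447), and had -1.76 ± 0.42 (adjusted p = 0.0133) on Solid and -1.82 ± 0.24 (adjusted p = 2.3e-06) on Illumina. The mir124 libraries of MBNL1 all lay below the reference, whose own libraries spread widely.

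Of 12 genes of REST and the CoREST complex, which silences neuronal genes, 2 were higher on both (16.7%, against 7.13%) and 0 lower (2 at an unadjusted p under 0.05 and by DESeq2). HDAC1, a histone deacetylase, stood at 231 CPM on Solid and 199, 196 and 236 on Illumina, against 45.4 to 108, and rose by 1.55 and 1.54. HMG20B, a DNA-binding subunit, stood at 68.7 CPM on Solid and 92.5, 63.4 and 91.1 on Illumina, against 10.4 to 27.1, and rose by 1.71 and 2.10. REST itself had -1.21 and -1.10 (adjusted p = 0.116 and 6.2e-04) and RCOR1, the CoREST scaffold, 0.36 and 0.11 (adjusted p = 0.672 and 0.716). With upper-quartile scaling 2 genes of this list were called lower beside the 2 higher.

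Of 26 SWI/SNF subunits, which remodel nucleosomes, 4 were higher on both (15.4%, against 7.13% of all genes) and 0 lower (0 also at an unadjusted p under 0.05 and by DESeq2). DPF2, a subunit of the BAF form, stood at 89.2 CPM on Solid and 123.98, 91.7 and 135 on Illumina, against 6.87 to 30.8, and rose by 2.43 and 2.95. SS18 stood at 117 CPM on Solid and 119.7, 117 and 115 on Illumina, against 21.4 to 46.9, and rose by 1.81 and 1.94. In SS18 the 4 libraries were almost equal. BCL7B rose by 1.54 and 1.89, and its Solid call ended with upper-quartile scaling (1.36, adjusted p = 0.0527) and without replicate 2 of mir550-3p (1.52, adjusted p = 0.0516). SMARCD2 rose by 2.09 and 2.06 with overlap, since the mir550-3p libraries stood at 147 and 156 CPM beside 166 CPM on Solid and 160.0, 102 and 182 on Illumina. ACTL6A, the progenitor subunit reported as a mir124 target, stood at 60.7 CPM on Solid and 46.2, 40.7 and 48.5 on Illumina, against 39.9 to 178, and had -0.55 and -0.86 (adjusted p = 0.541 and 0.0132).

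SNARE proteins fuse vesicles with their target membranes, and 6 of 38 such genes were higher on both (15.8%, against 7.13%) and 0 lower (2 at an unadjusted p under 0.05, 0 by DESeq2). STX2, a syntaxin of the plasma membrane, stood at 542 CPM in the Solid library and 498, 577 and 506 CPM in Illumina replicates 1, 2 and 3, against 47.0 to 106 (median 55.8). Its log2 fold change was 3.01 ± 0.29 (adjusted p = 9.7e-06) on Solid and 3.10 ± 0.18 (adjusted p = 2.4e-11) on Illumina, and the mir124 libraries lay far above the reference. STX10, a syntaxin of the trans-Golgi, stood at 136 CPM on Solid and 228, 156 and 199 on Illumina, against 8.71 to 44.1, and rose by 2.37 and 3.02. YKT6 rose by 1.37 and 1.41, STX5 by 1.39 and 1.53 and BET1L by 1.62 and 1.52. VAMP2, the SNARE of synaptic vesicles, stood at 52.4 CPM on Solid and 45.2, 39.2 and 48.8 on Illumina, inside the reference range of 21.9 to 66.8. With upper-quartile scaling 4 SNARE genes were higher.

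The collagen hydroxylases had 2 of 13 genes higher on both (15.4%, against 7.13%), PLOD3 and P4HA2, a prolyl hydroxylase subunit, with 1.77 and 1.60, and 0 lower (0 also at an unadjusted p under 0.05), while DESeq2 called 4 higher and 0 lower. PLOD1 had 0.49 and 0.51 (adjusted p = 0.491 and 0.0498). PLOD2 had -0.72 and -0.59 (adjusted p = 0.359 and 0.0362). Of 27 genes of the ARP2/3 complex and of GTPase signalling to actin 3 were higher on both, RHOG, RHOC and ARPC1A (11.1%, against 7.13% of all genes), and 1 lower, ROCK1 (3.70%, against 1.47%). ARPC1A, a subunit of the actin-branching ARP2/3 complex, stood at 444 CPM on Solid and 529, 729 and 576 on Illumina, against 69.9 to 171, and rose by 1.90 and 2.49. RHOC, a GTPase of cell movement, stood at 237 CPM on Solid and 398, 352 and 347 on Illumina, against 17.1 to 111, and rose by 1.84 and 2.60. Both lay above all reference libraries, and in both the Solid library was the lowest of the 4. ARPC1B, the partner of ARPC1A and itself on the target list, had -1.02 and -1.03 (adjusted p = 0.176 and 0.00105). RHOA had 1.27 and 1.42 (adjusted p = 0.0686 and 3.4e-05), with all 4 libraries above the reference. With RLE size factors, a median-ratio scaling, 5 genes of this list were higher on both.

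Genes of the passage from G1 to S phase had 6 of 24 members higher on both (25%, against 7.13% of all genes) and 0 lower (0 also at an unadjusted p under 0.05 and by DESeq2). CCNE1, the cyclin that activates CDK2, stood at 251 CPM in the Solid library and 169, 179 and 204 CPM in Illumina replicates 1, 2 and 3, against 10.96 to 71.8 (median 31.5). CCNE1 rose by 2.84 ± 0.32 (adjusted p = 3.5e-05) on Solid and 2.51 ± 0.20 (adjusted p = 4.8e-09) on Illumina on the log2 scale. The Solid library was the highest of CCNE1. E2F4, a repressor of cell-cycle genes in resting cells, stood at 85.1 CPM on Solid and 96.8, 104 and 98.9 on Illumina, against 20.2 to 34.5, and rose by 1.56 and 1.92. CDKN2C, an inhibitor of CDK4 and CDK6, stood at 114 CPM on Solid and 81.6, 83.6 and 85.0 on Illumina, against 31.6 to 50.2, and rose by 1.34 and 1.02. E2F1, an activator of S-phase genes, rose by 1.90 and 1.65, CCND3 by 1.19 and 0.94 and E2F5 by 1.29 and 0.41. E2F1 and E2F5 had overlapping libraries, and E2F5 was lower on Illumina than on Solid in the direct test (-1.01, adjusted p = 0.0227). With upper-quartile scaling 4 of these genes were higher on both, and 5 without Illumina replicate 2. Laminin chains (12 genes) and integrin chains (26 genes) had 0 genes called on both platforms by edgeR. At an unadjusted p under 0.05 on both, 1 laminin chain was higher and 2 integrin chains were lower, and DESeq2 called 1 laminin chain, LAMC1, and 0 integrin chains. On Illumina alone 1 laminin chain was higher and 6 lower, and 4 integrin chains were higher and 14 lower; with 44.4% of all genes lower there, these counts say little about the families.

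**Figure D3:**
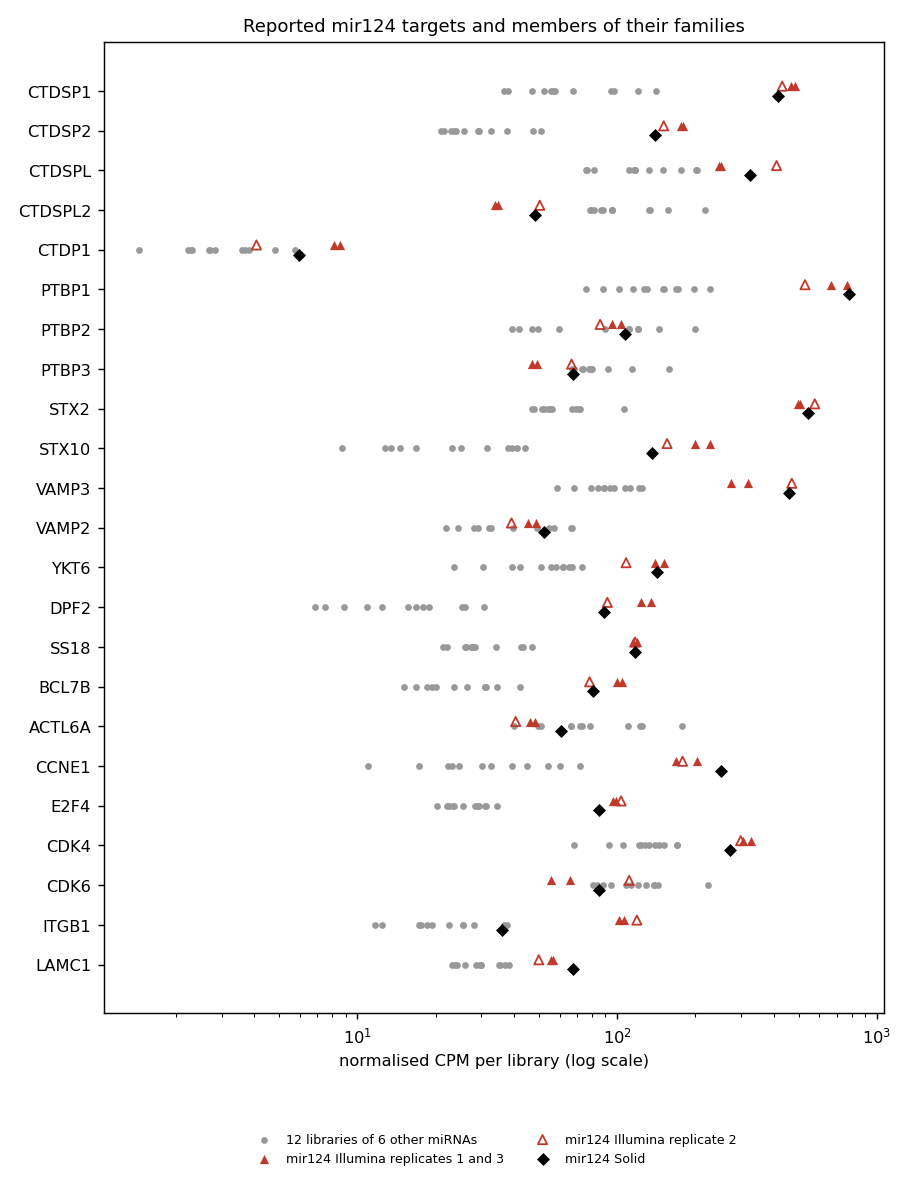
Normalised CPM in each library (log x axis) for reported mir124 targets and their relatives. Grey points are the 12 reference libraries, red triangles the mir124 Illumina libraries (open for replicate 2) and black diamonds the Solid library; CTDSP1, CTDSP2 and CTDSPL lie above the reference while CTDSPL2 lies below it, PTBP1 lies above while PTBP2 is inside, and STX2 and VAMP3 lie above while VAMP2 is inside.

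The RISC and miRNA machinery had 7 of 32 genes higher on both (21.9%, against 7.13% of all genes) and 1 lower (3.13%, against 1.47%; 4 at an unadjusted p under 0.05 on both, and 2 by DESeq2). TNRC6A, whose counts can come from the cell's own gene or from the GW182 trap, stood at 50722 CPM in the Solid library and 46744, 13923 and 48453 CPM in Illumina replicates 1, 2 and 3, against 5667 to 16071 (median 9022). Its log2 fold change was 2.35 ± 0.27 (adjusted p = 5.3e-05) on Solid and 1.99 ± 0.25 (adjusted p = 1.5e-06) on Illumina. Replicate 2 of TNRC6A lay inside the reference range, under the mir550-3p libraries, while the other 3 lay far above it. The risers' share of counts was lowest in the same replicate, and the part of TNRC6A in that was not tested. TNRC6B had -0.14 and -0.22 and TNRC6C -0.04 and -0.30, with adjusted p-values from 0.300 to 0.969. Argonaute 2, encoded by EIF2C2 (now AGO2), had 0.70 and 0.81 (adjusted p = 0.384 and 0.0125). CNOT1, the scaffold of the main deadenylase, stood at 257 CPM on Solid and 164, 180.5 and 187 on Illumina, against 51.8 to 104, and rose by 1.59 and 1.18. DROSHA, which cuts primary miRNA transcripts in the nucleus, stood at 125 CPM on Solid and 94.1, 76.1 and 122 on Illumina, against 21.4 to 53.4, and rose by 1.86 and 1.63. XPO5, the exporter of miRNA precursors, rose by 1.26 and 1.09.

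PAN2, the catalytic subunit of another deadenylase, differed in size between the platforms. It stood at 49.8 CPM in the Solid library and 123.92, 103 and 117 CPM in Illumina replicates 1, 2 and 3, against 8.51 to 23.3 (median 10.2), and rose by 1.89 ± 0.38 (adjusted p = 0.00411) on Solid and 3.22 ± 0.19 (adjusted p = 5.2e-11) on Illumina. The Illumina value was higher by 1.21 ± 0.43 on the log2 scale (adjusted p = 0.0483 in the fit of all 16 libraries). That difference was not called without Illumina replicate 1 (1.15, adjusted p = 0.117) or replicate 3 (1.19, adjusted p = 0.101). PAN3, its partner, had -1.29 and -1.47 (adjusted p = 0.131 and 2.0e-04). In the decapping machinery the cofactors DCP1B (1.63 and 1.69) and EDC4 (1.33 and 1.40) rose and DCP2, the decapping enzyme, fell (-1.66 and -1.66).

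**Figure D4:**
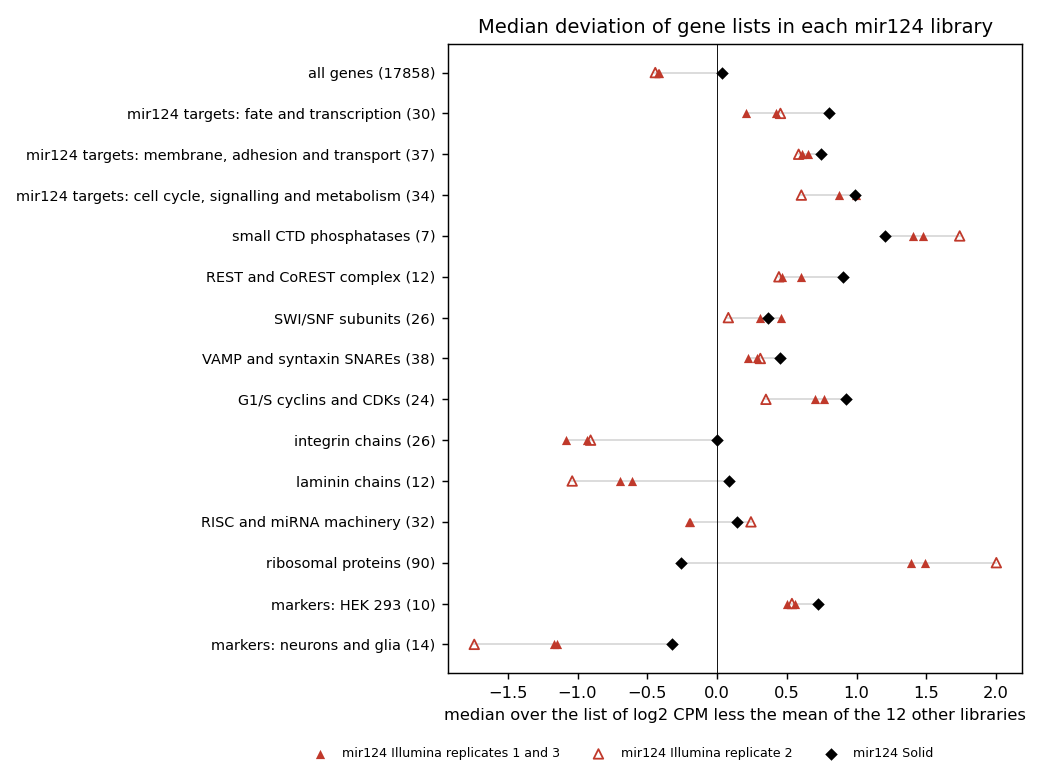
Median over each gene list of the log2 CPM in a mir124 library less the mean of the 12 reference libraries (x axis), for the Solid library (black diamonds) and the Illumina libraries (red triangles, open for replicate 2); the number of genes tested on both platforms stands in brackets. Target lists lie above the median of all genes in all 4 libraries, ribosomal protein genes lie at 1.39 (replicate 1) or higher on Illumina and at -0.26 on Solid, and the values are descriptions without a test.

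Fewer genes were called lower than higher on both platforms, and how many were lower depended on single reference libraries. On Illumina alone more genes were lower (7937) than higher (4370), while the lone Solid library had 287 lower and 1326 higher. The smaller count over both platforms is thus no measure of how many mRNAs were recovered less with mir124. The 263 fallers had a median log2 fold change of -1.69 on Solid and -1.60 on Illumina, and in 223 of them (84.8%) all 4 mir124 libraries lay below all 12 others, as in 8.18% of all tested genes. The choice of the fallers favours that order and their low share of counts. They held 2.25% of the counts on Solid, 1.84%, 2.36% and 1.68% on Illumina and 6.79% to 8.42% in the reference. Leaving out 1 library left 134 fallers without replicate 1 of mir1180-3p and 136 without its replicate 2, 139 without replicate 1 of mir550-3p and 135 without its replicate 2, but 456 without replicate 2 of mir1271-5p. Between 131 and 139 of the smaller sets were among the 263, as were 257 of the 456. The 287 Solid fallers moved likewise, to 150, 141, 146 and 151 without those 4 libraries and to 514 without replicate 2 of mir1271-5p. Without Illumina replicate 2, 268 genes were lower on both, among them all 263.

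The 6 fallers with the largest change, chosen like the risers, were TPRX1, ZNF83, GRIK2, CD93, KCNAB1 and SP8. ZNF83, a zinc finger protein, stood at 2.31 CPM in the Solid library and 2.28, 3.64 and 1.93 CPM in Illumina replicates 1, 2 and 3, against 9.001 to 55.1 (median 18.9) in the reference. Its log2 fold change was -3.31 ± 0.59 (adjusted p = 0.00176) on Solid and -3.01 ± 0.33 (adjusted p = 2.2e-07) on Illumina, and replicate 2 was the highest mir124 library. KCNAB1, a subunit of voltage-gated potassium channels, stood at 3.03 CPM on Solid and 3.06, 3.58 and 1.29 on Illumina, against 8.45 to 31.1, and had -2.63 and -2.70. SP8, a transcription factor of limb and forebrain development, stood at 6.21 CPM on Solid and 2.40, 4.53 and 3.41 on Illumina, against 14.4 to 104, and had -2.56 and -3.29. GRIK2, a kainate receptor subunit, stood at 1.19 CPM on Solid and 0.300, 0.255 and 0.368 on Illumina, against 1.94 to 30.7, and had -2.93 and -4.71. The Solid calls of GRIK2 and SP8 ended without either mir550-3p library (adjusted p from 0.0518 to 0.0595) and with the replicate number as a block (0.0595 and 0.0554). For GRIK2 they also ended without either mir1180-3p library, and for SP8 without replicate 2 of mir3613-5p.

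TPRX1, a homeobox gene, and CD93, a receptor of endothelial and myeloid cells, had no count in any Illumina library. TPRX1 stood at 0.478 CPM on Solid and 0.665 to 34.8 (median 14.5) in the reference, with -4.41 ± 1.15 on Solid (adjusted p = 0.0224). The highest floor that 3 counts give in an Illumina library was 0.192 CPM on the normalised scale. The reference mean of TPRX1, 15.1 CPM, was 78.8-fold above that floor, which is no bound against single reference libraries. CD93 stood at 2.55 CPM on Solid and 3.69 to 39.3 (median 18.5) in the reference, with -2.68 ± 0.69 on Solid (adjusted p = 0.0214). Its reference mean, 17.9 CPM, was 93.4-fold above the same floor. In TPRX1 the lowest reference values, 0.665 and 0.805 CPM in the mir550-3p libraries, were close to that of Solid.

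On the Illumina platform a much larger set of genes was called lower than on Solid, where 1 library limits the calls. Of the 7920 Illumina fallers tested in both comparisons, 1675 (21.1%) had no count in any of the 3 Illumina libraries, as did 6 of the 263 genes lower on both. Set directly against Solid, with that library assumed to vary like the other groups, Illumina had 433 genes higher (2.37%) and 3563 lower (19.5%) of 18271. The median difference over all genes was -0.39 on the log2 scale, but -0.06 with DESeq2 and -0.09 without Illumina replicate 2. The balance of these counts thus depended on the scaling and on that replicate. The ribosomal protein genes showed the contrast in the other direction. On Illumina 65 of 90 were higher and 11 lower (24.4% and 44.4% of all genes), with a median of 1.62. On Solid 2 were higher and 5 lower (7.31% and 1.58% of all genes), with a median of -0.43. The 2 higher on both (2.22%) were RPS14 (1.71 and 2.92) and RPS3 (1.24 and 2.44), and the 1 lower was RPL27. RPL27, a protein of the large subunit, stood at 1972 CPM on Solid and 2007, 3104 and 1901 on Illumina, against 4340.3 to 9998, and had -1.83 and -1.46. RPS3 lost its Solid call in 7 alternatives, among them upper-quartile scaling (1.05, adjusted p = 0.108). Ribosomal protein genes share reads with many processed copies, so their values are uncertain.

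Among 506 ZNF genes 37 were higher on both (7.31%, against 7.13% of all genes) and 8 lower (1.58%, against 1.47%), so the share was near the background. ZNF263 (2.04 and 1.44), ZNF131 (2.09 and 1.87), ZNF317 (1.89 and 1.42) and ZNF32 (1.80 and 1.73) rose with all 4 libraries above the reference. Of 58 histone genes 3 were higher (5.17%) and 2 lower (3.45%) on both, a count too small to set apart from the 7.13% and 1.47% of all genes. H2AFY2 (now MACROH2A2) rose by 2.02 and 2.25 and H1FX (now H1-10) by 1.36 and 1.77. HIST1H2BG (now H2BC8) fell, from 1.54 to 7.69 CPM in the reference to 0.239 CPM on Solid and 0.539, 1.28 and 0.875 on Illumina, and so did HIST1H2BL. The many like copies of histone genes make these values uncertain. ENO2, the neuronal enolase that HEK 293 cells also express, was the 1 gene of the 10 HEK 293 markers higher on both, with 2.09 and 2.11.

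**Figure D5:**
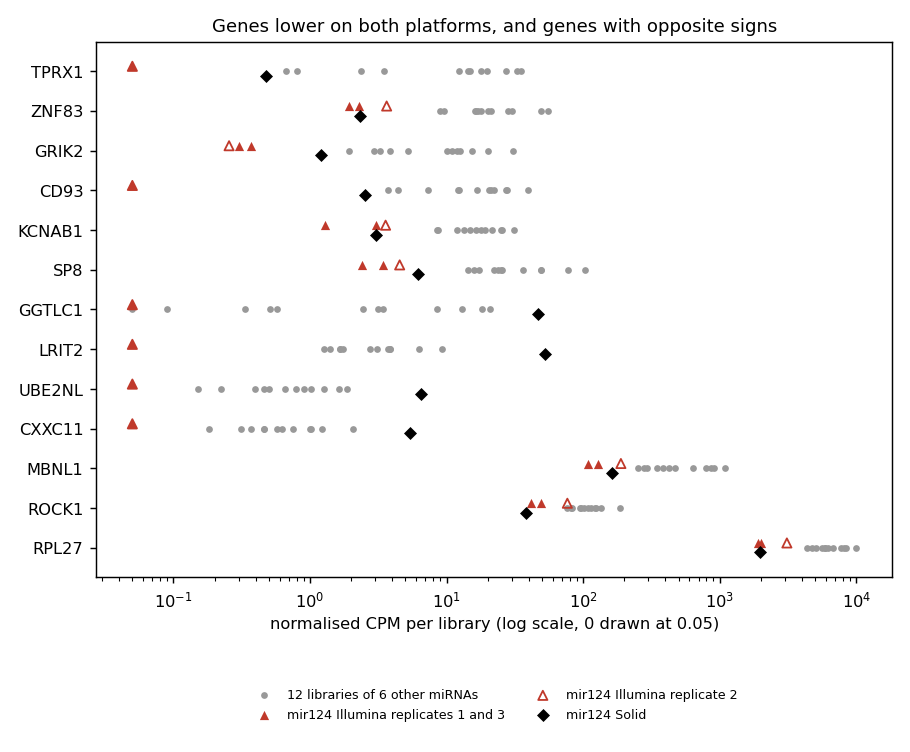
Normalised CPM in each library (log x axis, 0 drawn at 0.05) for genes lower on both platforms and for 4 genes with opposite signs. Grey points are the 12 reference libraries, red triangles the mir124 Illumina libraries (open for replicate 2) and black diamonds the Solid library; TPRX1, CD93, GGTLC1, LRIT2, UBE2NL and CXXC11 are at 0 in all 3 Illumina libraries, and in the last 4 of these the Solid library lies above all 12 others.

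Called in both comparisons with opposite signs were 35 genes (0.196%), of which 25 were higher on Solid and lower on Illumina and 10 the reverse. Of the 25, 6 had no count in any Illumina library. The 4 with the largest changes on both sides were GGTLC1, LRIT2, UBE2NL and CXXC11 (now RTP5). GGTLC1, a relative of gamma-glutamyltransferase, stood at 46.9 CPM on Solid, 0 in the 3 Illumina libraries and 0 to 20.8 (median 2.78) in the reference. LRIT2, a protein of the retina with leucine-rich repeats, stood at 52.2 CPM on Solid, 0 on Illumina and 1.27 to 9.32 (median 2.92) in the reference. Both were above every reference library on Solid. UBE2NL, a relative of the ubiquitin-conjugating enzyme UBE2N, had 6.45 CPM on Solid and 0.152 to 1.87 in the reference, and CXXC11 had 5.41 and 0.182 to 2.05. GGTLC1 and UBE2NL have close copies elsewhere in the genome, so their counts are uncertain, and the Illumina call of GGTLC1 ended without replicate 1 of mir1180-3p. Among the 10 genes of the reverse pattern, RPS13, RPL19 and RPL36A encode ribosomal proteins, and these names were picked out after the values were seen.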

How the data were processed

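Per the labels, RISC-trap polyA RNA of HEK 293 cells was sequenced, and the submitters' processing notes name TopHat2 and hg19. The authors deposited whole-number counts per RefSeq gene for 16 libraries (7612758 to 26527365 counts per library). For the counter and its strand setting, the sources used here give nothing. Groups came from sample titles. Genes were filtered with filterByExpr, scaled by TMM and tested two-sided with edgeR 4.0.16 in R 4.3.3 (quasi-likelihood, robust). The Solid comparison used 13 libraries, the Illumina comparison 15 and the platform comparison all 16. The Solid arm has 1 library, whose spread was taken from the remaining groups. Called means below 0.05 after Benjamini-Hochberg adjustment of the p-values of all genes tested. An error after ± is the standard error of a log2 fold change. CPM values were TMM-normalised over all 16 libraries, with 0 counts left at 0, and carry no length correction.

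Named were the 12 risers and 6 fallers with the largest smaller-of-both change (mean of at least 5 CPM, groups not overlapping), up to 4 called genes of each list by the larger adjusted p, 8 genes always, and 4 of opposite sign. Other list members are given to complete the lists. The members, lists and tests were chosen with earlier results of these data known. Alternatives were RLE and upper-quartile scaling, no filter, DESeq2 1.42.0, a single fit of all libraries, a replicate block, and each library left out. On simulated data with 100 genes changed 4-fold, the Solid comparison recovered 30% and the Illumina comparison 92%. Of 100 further genes changed 2-fold they recovered 3% and 41%. The simulation gave 34 and 139 calls, fewer than the data, so its cut-off on p was stricter and these shares need not hold there. A Solid comparison that misses the threshold says little. Of 19077 gene symbols, 18560 matched RefSeq names. The mir124-3p sequence and transcript sequences were not used here. Some members of the lists are not reported here.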

Additional observations from a re-analysis of the deposited data

Results flagged for a closer look

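In 7 of the 74 genes named by rule, the direct test between platforms (edgeR, quasi-likelihood, Benjamini-Hochberg adjusted, all 16 libraries) called a difference between the mir124 Illumina libraries and the mir124 Solid library. Of all 18271 genes tested, 2.37% were higher and 19.5% lower on Illumina. GGTLC1, LRIT2, UBE2NL and CXXC11 were chosen for opposite signs, which favours a call, and most other named genes for agreeing, which works against it. Nothing is therefore read from the count of 7. PAN2 was higher on Illumina by 1.21 on the log2 scale, with a rise over the other miRNAs on both platforms. The other 6 of these 7 were genes at 0 in all 3 Illumina libraries, whose fitted differences depend on the prior count and are no bounds. These were TPRX1 (-5.70), CD93 (-8.09), GGTLC1 (-12.29), LRIT2 (-12.45), UBE2NL (-9.43) and CXXC11 (-9.18). The Solid values, taken as measured, were set against the highest floor of 3 counts in an Illumina library. They lay above it by 2.49-fold for TPRX1, 13.3-fold for CD93, 245-fold for GGTLC1, 273-fold for LRIT2, 33.7-fold for UBE2NL and 28.3-fold for CXXC11. These folds leave out the counting error of the Solid library. For TPRX1 the Solid value was only 0.478 CPM, where 3 counts of that library give 0.241 CPM. Of all genes tested in both comparisons, 9.51% were at 0 in all 3 Illumina libraries. TPRX1 was no longer called different with upper-quartile scaling (-5.50), nor without Illumina replicate 1 (-5.68), 2 (-5.55) or 3 (-5.64).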

How the results depend on the processing

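Genes higher on both platforms numbered 960 with upper-quartile scaling, 1547 with RLE size factors, 1775 with DESeq2, 1279 with no filter and 2236 in 1 fit of all 16 libraries. Those lower on both numbered 609 with upper-quartile scaling, 753 with DESeq2 and 440 in the single fit, and those of opposite sign 60 with DESeq2 and 64 in the single fit. Solid risers were 2370 in the single fit, and Solid fallers 664 with upper-quartile scaling, 845 with DESeq2, 479 in the single fit and 451 with the replicate block. Genes higher on Illumina than on Solid were 725 with DESeq2, and those lower 2593. Leaving out 1 library gave 1067 to 1430 genes higher on both, 134 to 456 lower and 25 to 52 opposite, 1106 to 1484 Solid risers and 141 to 514 fallers, 3534 to 5498 Illumina risers and 6911 to 8106 fallers, and 367 to 454 genes higher and 2570 to 3078 lower on Illumina than on Solid. Of the 74 genes named by rule, 61 kept every call under these alternatives and 13 lost or gained one, among them H1FX with upper-quartile scaling (1.19, adjusted p = 0.0613). None of the 74 reversed. The labels do not say what the replicate numbers mark. Correlations between the replicate differences of the 6 reference miRNAs were -0.14 to 0.36 (median 0.03), 6 of 15 over 0.1. Whether the numbers pair the libraries was thus not settled. The block gave 1145 genes higher on both, 1070 of them among the 1274, and 386 lower. With Illumina replicates 1 and 3 summed, 1256 were higher and 254 lower. On Illumina alone that sum gave 3806 higher and 6822 lower, and leaving out replicate 2 gave 4130 and 7236, against 4370 and 7937. At these depths 0 counts allowed up to 0.394 CPM, and the lone Solid library sets the precision of every count taken over both platforms.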
